A study of Mus musculus with 15 samples.

Results

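The genes described here are 42 protein-coding genes of the cell cycle and of DNA replication, out of 45905 genes in each of the 2 deposited tables of reads per gene. They were listed by name and found by the gene column, and all 42 were present in both tables. They fall into 19 genes that act at the replication fork, in the supply of its building blocks or in the switch into S phase, and 23 genes that act in mitosis. All 42 had enough reads to be tested in every comparison, so no member was lost to the filter on low counts. They were chosen by name and role, with no threshold on a measured value, but with earlier results of these data known.

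The libraries hold poly(A) RNA from mouse gut and from organoids, epithelial structures cultured from mouse gut, in a study of Jup, the gene of the junction protein plakoglobin. There were 15 libraries in 5 groups of 3. Tamoxifen organoids were titled iVilCre ERT2 JUPfl/fl and coded T41, whereas DMSO and nativ organoids were titled JUPfl/fl, with no Cre named, and both were coded T75. In such a line the villin promoter drives a tamoxifen-dependent Cre recombinase in intestinal epithelium, and both Jup alleles are flanked by loxP sites, so stroma and immune cells keep the gene. Tamoxifen and DMSO name the agents, DMSO being a usual solvent of tamoxifen, and nativ is used here only as the name of a group. The gut libraries were described as PG_KO, coded T47, T48 and T56, and as ctr, coded T50, T51 and T52. Their titles go against these descriptions, since the ctr libraries were titled iVilCre ERT2JUPfl/fl and the PG_KO libraries DSS colitis JUPfl/fl, with DSS standing for a chemical that injures the colon lining. Groups are named by the descriptions throughout, and which mice received DSS cannot be told from the labels. Ages, doses and times of treatment were not given in the sources used here.

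A dividing cell first copies its DNA and then shares the copies between daughter cells. D-type cyclins with their kinases inactivate the retinoblastoma protein, which frees E2F factors to turn on the genes of replication, and later a complex of B-Myb, MuvB and FoxM1 turns on the genes of mitosis. In the intestine division takes place in the crypts, in stem cells and in their fast-dividing progeny, and cells stop dividing as they differentiate and move out of the crypt.

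Jup itself went with the descriptions. It stood at 69.0, 70.9 and 71.2 CPM (read counts scaled to a common library total) in Tamoxifen organoids, at 360, 378 and 414 CPM in DMSO organoids and at 386, 275 and 395 CPM in nativ organoids. In gut it stood at 75.2, 82.8 and 80.3 CPM in PG_KO libraries and at 302, 375 and 495 CPM in ctr libraries. Depth was similar, with 25185053 to 30744563 reads per organoid library and 23194385 to 29257641 per gut library, where 3 reads correspond to 0.0976 to 0.129 CPM. All 9 organoid libraries expressed the 6 epithelial markers (Epcam, Cdh1, Krt8, Krt18, Krt19 and Vil1), which summed to 10035 to 10164 CPM in Tamoxifen, 6421 to 7812 CPM in DMSO and 8191 to 8342 CPM in nativ organoids. Markers of fibroblasts, smooth muscle, endothelium, lymphocytes and nerves each summed to at most 1.62 CPM in every organoid library. Macrophage and neutrophil markers summed to 15.6 to 16.7 CPM in Tamoxifen, 72.2 to 96.8 CPM in DMSO and 86.9 to 105 CPM in nativ organoids, with the defining macrophage marker Adgre1 at 0 in all 9 libraries. The 6 enterocyte markers, defining genes of absorptive cells, summed to 5692 to 6380 CPM in Tamoxifen organoids, against 0.715 to 0.803 CPM in DMSO and 0.786 to 6.53 CPM in nativ organoids. Libraries of a group differed by far more than counting error in DMSO, nativ and both gut groups, with a chi-square per degree of freedom of 7.54 to 187 between pairs, and least in Tamoxifen organoids, with 2.13 to 3.52. Whether the 3 libraries of an organoid group came from separate cultures was not stated, so p-values measure only the spread between these samples.

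The members took a larger share of all reads in Tamoxifen organoids and in gut than in DMSO and nativ organoids. Together they took 0.296%, 0.284% and 0.287% of the reads in Tamoxifen libraries, 0.0920%, 0.0933% and 0.123% in DMSO libraries and 0.122%, 0.129% and 0.125% in nativ libraries. In gut they took 0.348%, 0.475% and 0.439% in PG_KO libraries and 0.232%, 0.245% and 0.363% in ctr libraries. By mean CPM, DMSO organoids were the lowest of the 5 groups for 40 of 42 members, and nativ organoids for the other 2, Ccne1 and E2f1. PG_KO gut was the highest group for 35 members, 17 of replication and 18 of mitosis, and Tamoxifen organoids for the other 7. This order is on the scale of library totals and sets an all-epithelial material beside tissue, so it is given with no test. How many of all genes have the same lowest or highest group was not counted.

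**Figure D1:**
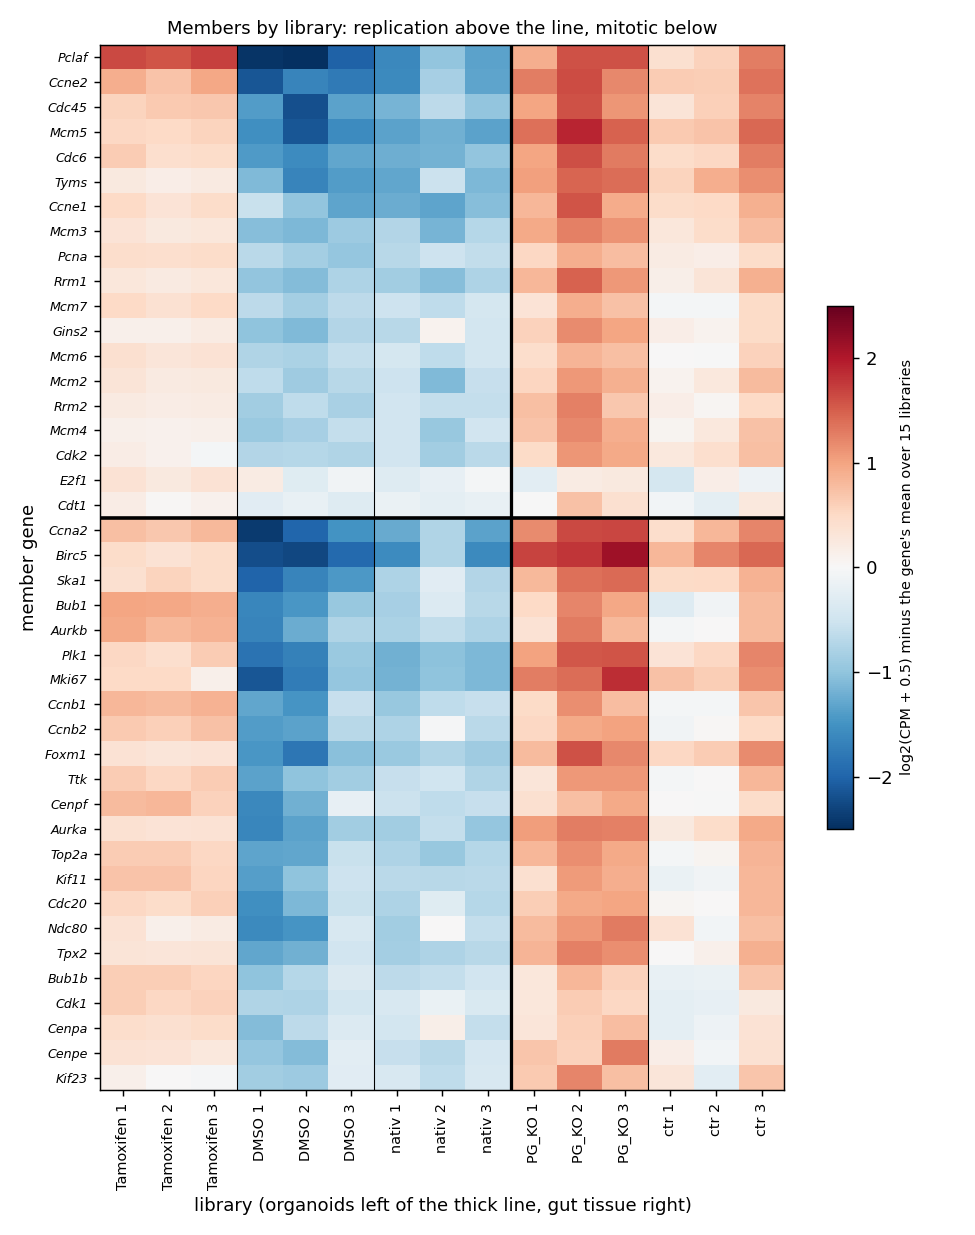
Level of each of the 42 members (rows, 19 of replication above the line and 23 of mitosis below it) in each of the 15 libraries (columns), as log2(CPM + 0.5) minus the gene's mean over all libraries. The 3 Tamoxifen columns lie mostly above the mean and the 6 DMSO and nativ columns mostly below it, and among the gut columns ctr replicate 3 looks more like the PG_KO libraries than like the other 2 ctr libraries.

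Per length of exon (CPM per kb of exon), the sliding clamp Pcna was the most abundant member in all 5 groups, at 111 ± 2.02 in Tamoxifen organoids, 46.1 ± 4.75 in DMSO organoids, 137 ± 18.1 in PG_KO gut and 99.8 ± 11.4 in ctr gut (mean ± SD, n = 3). On this per-length scale 2 genes were among the 3 least abundant in all 5 groups, the kinetochore gene Ska1, at 2.34 ± 0.136 in Tamoxifen and 0.377 ± 0.107 in DMSO organoids, and the licensing factor Cdc6, at 2.77 ± 0.237 in Tamoxifen and 0.658 ± 0.0692 in DMSO organoids.

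The first comparison set Tamoxifen organoids, with low Jup, against DMSO organoids. Of the 42 members 41 rose in Tamoxifen organoids and 0 fell (edgeR quasi-likelihood test, adjusted p under 0.05 over all genes), where 33.9% of the 16449 genes tested rose. All 23 mitotic members and 18 of 19 replication members rose, and the exception was E2f1. The median log2 change was 1.15 for replication members and 1.59 for mitotic members, beside 0.02 for all genes tested. Changes above 1 on the log2 scale, which 18.7% of all genes reached, were seen in 13 of 19 replication and 21 of 23 mitotic members. The 3 Tamoxifen libraries lay above the 3 DMSO libraries for all 42 members, as they did for 41.8% of all genes tested.

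Among replication members Pclaf, Ccne2, Cdc45, Mcm5 and Cdc6 rose by more than 2 on the log2 scale. Pclaf, which encodes a small protein bound to the PCNA clamp, stood at 120.2, 113 and 124 CPM in Tamoxifen libraries, 6.44, 4.74 and 8.96 CPM in DMSO libraries and 12.1, 18.7 and 14.6 CPM in nativ libraries. It rose by 4.08 on the log2 scale, a 16.9-fold difference from DMSO (SE 0.25, edgeR adjusted p = 1.26e-07), the largest change of any member, and the groups did not overlap. Cdc6, which loads the helicase onto origins, stood at 15.6, 13.3 and 13.7 CPM in Tamoxifen libraries, 3.40, 3.00 and 3.70 CPM in DMSO libraries and 3.93, 4.05 and 4.73 CPM in nativ libraries, and rose by 2.01 (SE 0.14, edgeR adjusted p = 3.27e-07). The lowest Tamoxifen library lay above every DMSO and nativ library for Cdc6 as well.

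The 6 subunits of the MCM helicase, which unwinds DNA at the fork, all rose but not by the same amount. Mcm5 stood at 65.6, 64.6 and 68.0 CPM in Tamoxifen libraries, 15.5, 9.97 and 14.98 CPM in DMSO libraries and 17.9, 19.5 and 17.8 CPM in nativ libraries, and rose by 2.23 (SE 0.15, edgeR adjusted p = 3.51e-07). Mcm3 and Mcm7 rose by 1.27 (SE 0.10, adjusted p = 7.43e-07) and 1.11 (SE 0.08, adjusted p = 5.41e-07). Mcm2 stood at 73.2, 68.3 and 69.4 CPM in Tamoxifen libraries, 37.7, 31.3 and 36.1 CPM in DMSO libraries and 40.6, 26.9 and 39.2 CPM in nativ libraries, and rose by 0.94 (SE 0.11, edgeR adjusted p = 2.50e-05). Mcm6 rose by 1.00 (SE 0.08) and Mcm4 by 0.84 (SE 0.11), so Mcm5 stood apart from the other 5 subunits, which lay between 0.84 and 1.27. Cdc45 and Gins2, which join the MCM ring to form the working helicase, rose by 2.30 (SE 0.24) and 1.09 (SE 0.23). Cdt1, the partner of Cdc6 in loading, rose by only 0.30 (SE 0.09, edgeR adjusted p = 0.0146), with 46.5, 41.8 and 44.2 CPM in Tamoxifen libraries and 33.8, 35.8 and 32.6 CPM in DMSO libraries. Of the 2 partners in helicase loading, Cdc6 thus had a far larger change than Cdt1.

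The clamp gene Pcna and 3 genes of nucleotide supply rose by 0.91 to 1.56 on the log2 scale. Pcna, the ring that holds the polymerase on DNA, stood at 141, 138 and 143 CPM in Tamoxifen libraries, 64.4, 57.2 and 52.5 CPM in DMSO libraries and 63.9, 71.9 and 67.6 CPM in nativ libraries, and rose by 1.21 (SE 0.12, edgeR adjusted p = 5.39e-06). Rrm1, the large subunit of ribonucleotide reductase, stood at 114, 109 and 114 CPM in Tamoxifen libraries and 46.9, 43.8 and 54.0 CPM in DMSO libraries, and rose by 1.15 (SE 0.09, edgeR adjusted p = 7.48e-07). Its small subunit gene Rrm2 rose by 0.91 (SE 0.10), and the thymidylate synthase gene Tyms by 1.56 (SE 0.23). The groups did not overlap for any of these 4 genes.

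The switch into S phase was uneven. The 2 cyclin E genes, whose products drive the kinase encoded by Cdk2, both rose. Ccne1 stood at 20.4, 18.1 and 19.6 CPM in Tamoxifen libraries, 9.54, 6.91 and 5.41 CPM in DMSO libraries and 5.77, 5.44 and 6.58 CPM in nativ libraries, and rose by 1.35 (SE 0.18, edgeR adjusted p = 6.55e-05). Ccne2 stood at 11.8, 10.1 and 12.3 CPM in Tamoxifen libraries and 0.981, 1.59 and 1.41 CPM in DMSO libraries, and rose by 3.04 (SE 0.29, edgeR adjusted p = 4.36e-06). Cdk2 rose by 0.76 (SE 0.10). E2f1, the activating E2F factor, stood at 23.6, 21.8 and 23.6 CPM in Tamoxifen libraries and 21.3, 14.8 and 17.2 CPM in DMSO libraries, a log2 difference of 0.31 (SE 0.13, edgeR adjusted p = 0.0655). E2f1 was the single member that missed the threshold, although its Tamoxifen libraries lay just above the highest DMSO library.

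Mitotic members rose over a narrower range, between 0.63 for Kif23, a kinesin of the midbody, and 2.62 for Ccna2. Ccna2 encodes cyclin A, which acts from S phase into early mitosis. It stood at 153, 144 and 158 CPM in Tamoxifen libraries, 16.8, 22.3 and 31.5 CPM in DMSO libraries and 37.3, 53.5 and 35.4 CPM in nativ libraries, and rose by 2.62 (SE 0.25, edgeR adjusted p = 5.26e-06). Ccnb1, a cyclin of mitotic entry, stood at 79.4, 76.7 and 81.0 CPM in Tamoxifen libraries, 17.6, 15.6 and 29.7 CPM in DMSO libraries and 22.7, 28.4 and 29.5 CPM in nativ libraries, and rose by 1.85 (SE 0.21, edgeR adjusted p = 2.16e-05). DMSO replicate 3 was the highest DMSO library for both cyclins and lay below every Tamoxifen library. Ccnb2 rose by 1.73 (SE 0.26), and Cdk1, the kinase of the mitotic cyclins, by 1.16 (SE 0.13).

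The spindle checkpoint and the chromosomal passenger complex held several of the strongest mitotic changes. Bub1, a checkpoint kinase at the kinetochore, stood at 43.9, 43.0 and 41.1 CPM in Tamoxifen libraries, 6.66, 7.62 and 11.01 CPM in DMSO libraries and 12.1, 17.0 and 13.4 CPM in nativ libraries, and rose by 2.27 (SE 0.21, edgeR adjusted p = 3.95e-06). Ttk, the checkpoint kinase also called MPS1, stood at 18.6, 17.1 and 18.5 CPM in Tamoxifen libraries and 4.33, 5.64 and 6.26 CPM in DMSO libraries, and rose by 1.67 (SE 0.17, edgeR adjusted p = 7.54e-06). For both checkpoint kinases every Tamoxifen library lay above every DMSO library. Birc5, which encodes survivin, stood at 53.9, 50.8 and 54.0 CPM in Tamoxifen libraries, 8.001, 7.74 and 9.77 CPM in DMSO libraries and 12.8, 23.1 and 12.6 CPM in nativ libraries, and rose by 2.57 (SE 0.26, edgeR adjusted p = 8.47e-06). Aurkb, the kinase of the same passenger complex, stood at 68.8, 62.0 and 65.1 CPM in Tamoxifen libraries and 10.96, 14.6 and 20.6 CPM in DMSO libraries, and rose by 2.02 (SE 0.20, edgeR adjusted p = 7.32e-06). The 2 passenger genes thus rose by more than 2 on the log2 scale. Bub1b, a checkpoint protein, rose by 1.21 (SE 0.15), and Cdc20, the activator of the ubiquitin ligase that the checkpoint holds back, by 1.48 (SE 0.24).

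The remaining mitotic members rose as well. Mki67, the marker of dividing cells, stood at 154, 153 and 119 CPM in Tamoxifen libraries, 24.0, 31.8 and 55.1 CPM in DMSO libraries and 47.3, 53.6 and 49.4 CPM in nativ libraries, and rose by 1.88 (SE 0.26, edgeR adjusted p = 8.00e-05). Top2a, the topoisomerase that untangles sister DNA, stood at 288, 288 and 266 CPM in Tamoxifen libraries, 73.7, 75.4 and 127 CPM in DMSO libraries and 108, 96.6 and 113 CPM in nativ libraries, and rose by 1.55 (SE 0.17, edgeR adjusted p = 1.93e-05). Tamoxifen replicate 3 was the lowest Tamoxifen library for both genes and still lay above all DMSO and nativ libraries. Foxm1, a transcription factor of mitotic genes, stood at 36.4, 34.8 and 35.9 CPM in Tamoxifen libraries and 9.97, 7.71 and 13.4 CPM in DMSO libraries, and rose by 1.72 (SE 0.17, edgeR adjusted p = 8.06e-06). The kinases Plk1 and Aurka, which drive mitotic entry and the centrosomes, rose by 1.93 (SE 0.21) and 1.57 (SE 0.20). Kinetochore and centromere genes spread widely, with Ska1 at 2.56 (SE 0.27), Cenpf at 1.59 (SE 0.29), Ndc80 at 1.30 (SE 0.35), the centromeric histone Cenpa at 1.04 (SE 0.24) and the motor Cenpe at 1.00 (SE 0.18). The spindle genes Kif11, a motor, and Tpx2, a microtubule nucleator, rose by 1.53 (SE 0.18) and 1.21 (SE 0.18).

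**Figure D2:**
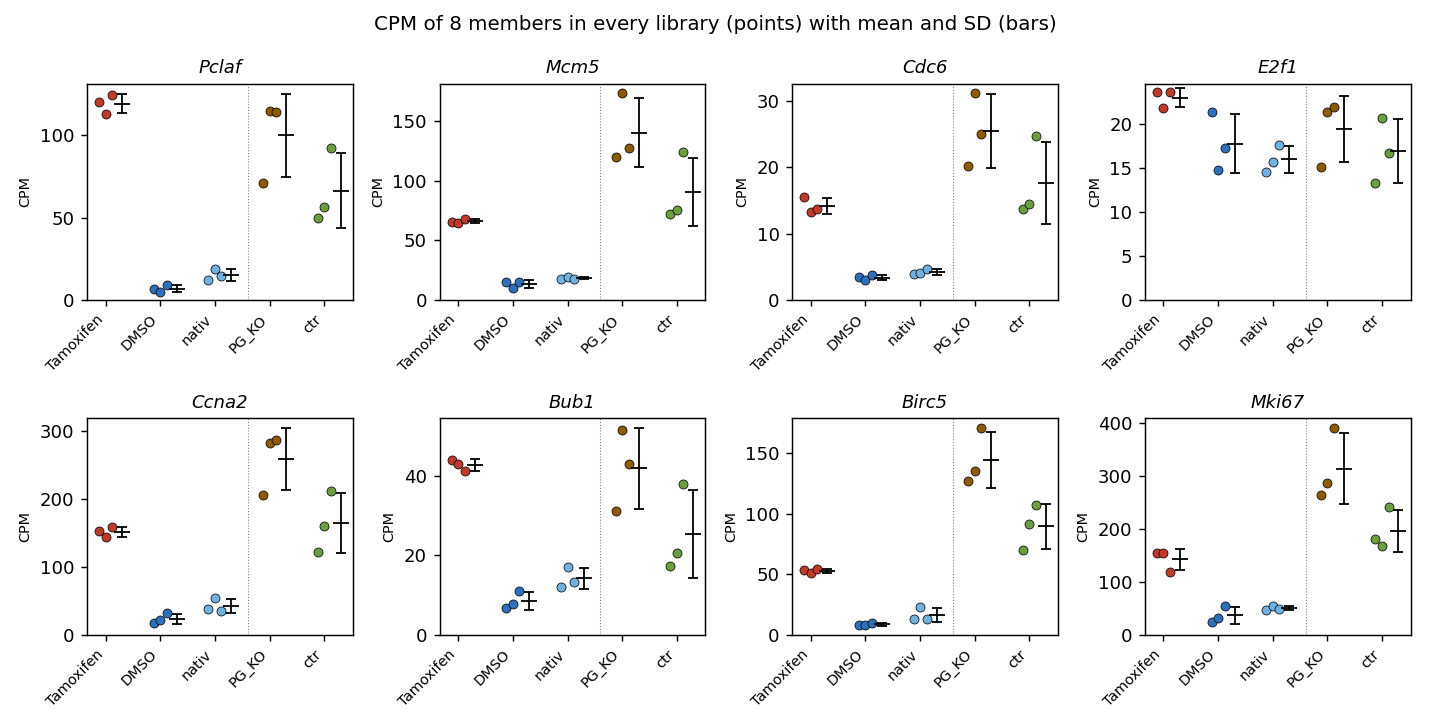
CPM of 8 members in every library, each panel with its own linear axis from 0, points for libraries and bars for the mean and SD of 3 libraries. Pclaf, Mcm5, Cdc6, Ccna2, Bub1, Birc5 and Mki67 show a gap between Tamoxifen and the other organoids, E2f1 shows hardly any, and in gut the highest ctr point, replicate 3, reaches or nears the PG_KO points.

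Because members of each class moved together, the promoters of 3 replication and 3 mitotic members are shown. They are those of smallest p in this comparison among members with a promoter in the table. They come from RefSeq on GRCm38.p6 and run from 250 bases before to 50 bases after the gene start, in the direction of the gene. Capitals mark 3 motifs searched on both strands, the CCAAT box as CCAAT, the E2F site as TTTNNCGC and the cell cycle genes homology region (CHR), bound by the MuvB complex, as TTTGAA, so a match on the other strand reads ATTGG, GCGNNAAA or TTCAAA.
Pclaf, chr9:65890073-65890372, plus strand: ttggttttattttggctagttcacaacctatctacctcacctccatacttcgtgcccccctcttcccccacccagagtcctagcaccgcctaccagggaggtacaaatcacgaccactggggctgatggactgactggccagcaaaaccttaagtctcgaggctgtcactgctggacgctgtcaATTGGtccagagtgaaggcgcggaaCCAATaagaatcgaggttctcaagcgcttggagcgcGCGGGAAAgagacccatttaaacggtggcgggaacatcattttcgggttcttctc
Cdc6, chr11:98907901-98908200, plus strand: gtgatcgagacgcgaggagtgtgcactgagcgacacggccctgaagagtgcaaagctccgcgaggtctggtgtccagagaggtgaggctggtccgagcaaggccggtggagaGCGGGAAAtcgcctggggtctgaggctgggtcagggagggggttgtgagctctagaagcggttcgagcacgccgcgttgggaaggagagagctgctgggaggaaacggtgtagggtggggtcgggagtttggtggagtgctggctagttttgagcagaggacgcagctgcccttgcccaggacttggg
Mcm5, chr8:75109259-75109558, plus strand: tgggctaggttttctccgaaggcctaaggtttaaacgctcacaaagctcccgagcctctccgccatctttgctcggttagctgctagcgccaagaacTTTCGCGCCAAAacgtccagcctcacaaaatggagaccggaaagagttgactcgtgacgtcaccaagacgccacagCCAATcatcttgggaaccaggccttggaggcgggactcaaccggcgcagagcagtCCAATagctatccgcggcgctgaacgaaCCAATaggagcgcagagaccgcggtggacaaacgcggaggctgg
Bub1, chr2:127831810-127832109, minus strand: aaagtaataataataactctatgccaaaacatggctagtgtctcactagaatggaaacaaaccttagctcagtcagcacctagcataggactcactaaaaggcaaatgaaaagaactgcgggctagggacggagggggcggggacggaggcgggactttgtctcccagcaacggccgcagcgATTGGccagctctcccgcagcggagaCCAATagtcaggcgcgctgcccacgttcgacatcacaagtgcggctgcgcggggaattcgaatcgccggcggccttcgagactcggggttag
Ttk, chr9:83834439-83834738, plus strand: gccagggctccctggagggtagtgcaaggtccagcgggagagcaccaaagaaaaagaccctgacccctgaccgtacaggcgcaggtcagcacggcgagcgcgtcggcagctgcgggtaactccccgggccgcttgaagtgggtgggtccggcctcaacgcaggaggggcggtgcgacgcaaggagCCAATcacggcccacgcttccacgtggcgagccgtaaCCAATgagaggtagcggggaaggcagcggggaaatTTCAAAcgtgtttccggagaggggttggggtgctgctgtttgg
Birc5, chr11:117848987-117849286, plus strand: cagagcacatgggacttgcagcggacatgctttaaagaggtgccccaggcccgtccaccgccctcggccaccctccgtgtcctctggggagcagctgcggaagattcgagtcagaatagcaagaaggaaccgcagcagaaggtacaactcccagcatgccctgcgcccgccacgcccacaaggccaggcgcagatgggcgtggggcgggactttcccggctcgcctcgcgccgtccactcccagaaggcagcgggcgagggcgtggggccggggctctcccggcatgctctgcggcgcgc

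All 3 replication promoters held E2F letters, which in Mcm5 form a pair of overlapping matches on opposite strands, and none of the 3 mitotic promoters did. Counted from the gene start, the E2F matches began at -153 and -149 in Mcm5, at -138 in Cdc6 and at -5 in Pclaf. CCAAT boxes stood in Pclaf, Mcm5, Bub1 and Ttk, and the CHR letters in Ttk alone, where they began at 8. Birc5 held none of the 3 in this window. Over all members, 34 had a promoter in the table, with 35 windows, 17 of replication and 18 of mitotic members, and the promoters of Tpx2, Foxm1, Ska1, Aurkb, Ccne2, Ccna2, Mcm4 and Gins2 were not used here. Ccna2, Aurkb and Foxm1 had a smaller p than Birc5, and Ccna2 and Aurkb a smaller p than Ttk, so the mitotic promoters shown are not those of the 3 smallest p. The E2F letters were in 9 of 17 replication windows (52.9%) and 1 of 18 mitotic windows (5.56%), beside 5.17% of all 32851 windows. The CHR letters were in 2 of 17 replication windows (11.8%) and 14 of 18 mitotic windows (77.8%), beside 17.9% of all windows. CCAAT was in 12 of 17 replication windows (70.6%) and 16 of 18 mitotic windows (88.9%), beside 37.4% of all windows. A match is a run of letters and not a measured site, and variants of these letters were not searched.

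Other genes of the pathway, 91 that are no members, moved less evenly. Of these, 63 rose and 6 fell in Tamoxifen organoids. All 7 kinetochore and checkpoint genes, 7 mitotic kinesins, 6 genes of cytokinesis and the passenger complex, 5 condensin genes and 5 genes of histone supply and DNA methylation rose. In those groups Nuf2, a partner of Ndc80, rose by 2.50 (SE 0.18, adjusted p = 5.97e-07), the chromosome motor Kif4 by 1.60 (SE 0.13, adjusted p = 1.04e-06), the cytokinesis regulator Ect2 by 1.26 (SE 0.09, adjusted p = 5.56e-07), the condensin subunit Smc2 by 2.23 (SE 0.17, adjusted p = 7.21e-07) and Uhrf1, which guides maintenance methylation, by 2.36 (SE 0.15, adjusted p = 1.84e-07). Replication partners were mixed, with 3 of 6 genes of origin recognition, 4 of 6 helicase partners, 7 of 9 polymerase genes and 5 of 7 clamp loader and ligation genes higher. Named by the smallest p, Orc1 rose by 2.62 (SE 0.20), Mcm10 by 2.67 (SE 0.12), the primase partner Pola2 by 1.30 (SE 0.10) and the flap nuclease Fen1 by 1.87 (SE 0.16). Gins4, a partner of Gins2, and Pold3, a polymerase subunit, fell by 0.55 and 0.35.

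The regulators that act before S phase moved in both directions. Of 5 D-type cyclin and kinase genes 0 rose, and Ccnd1 and Cdk6 fell. Ccnd1, a D-type cyclin, stood at 323, 305 and 313 CPM in Tamoxifen libraries, 1300.5, 933 and 947 CPM in DMSO libraries and 987, 556 and 1006 CPM in nativ libraries, and fell by 1.82 (SE 0.19, edgeR adjusted p = 9.95e-06). Cdkn2a, the locus of an inhibitor of the D-type cyclin kinases, stood at 1.17, 1.20 and 1.14 CPM in Tamoxifen libraries, 87.6, 84.3 and 71.1 CPM in DMSO libraries and 78.3, 72.5 and 81.6 CPM in nativ libraries, and fell by 6.17 (SE 0.14, edgeR adjusted p = 1.31e-10). Cdkn2a was thus high in all 6 DMSO and nativ libraries and low in the 3 Tamoxifen libraries, and in gut it stood at 0 to 0.141 CPM. Of the other 6 CDK inhibitors, 2 rose, Cdkn1a by 0.84 (SE 0.11) and Cdkn1c by 0.58 (SE 0.21). Of 10 genes of pocket proteins and other E2F factors 7 rose and 1 fell, with a median log2 change of 1.31. Rb1, the retinoblastoma gene, stood at 156, 163 and 149.9 CPM in Tamoxifen libraries and 39.2, 38.2 and 45.8 CPM in DMSO libraries, and rose by 1.86 (SE 0.10, edgeR adjusted p = 2.95e-08). Of these 10 genes E2f2 had the largest rise, by 3.98 (SE 0.38) and E2f5 was the 1 that fell, by 0.34 (SE 0.10). Mybl2, the gene of B-Myb, rose by 2.78 (SE 0.27, adjusted p = 6.14e-06), and the ubiquitin-conjugating gene Ube2c, of mitotic exit, by 1.22 (SE 0.17, adjusted p = 1.02e-04).

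**Figure D3:**
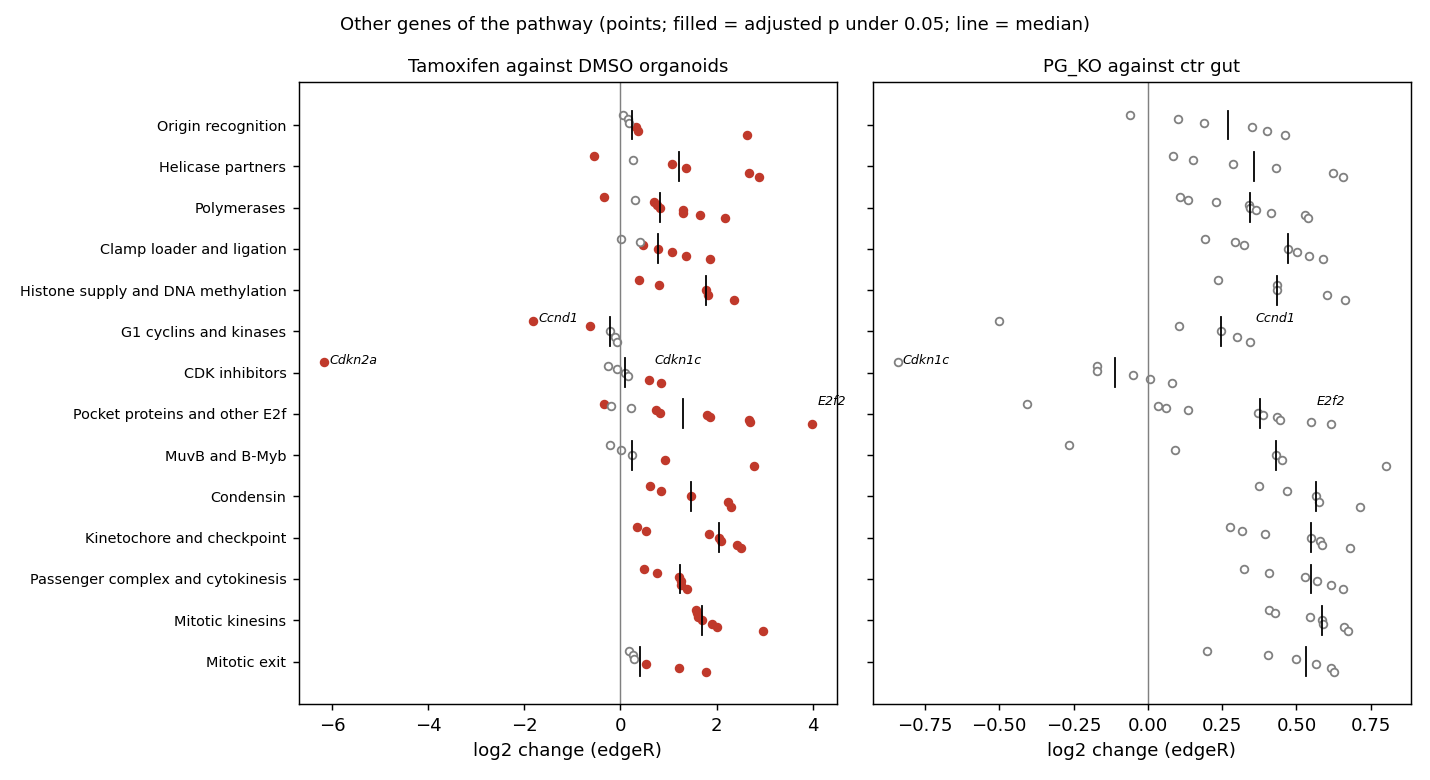
Log2 change of the 91 other pathway genes by group (rows), in Tamoxifen against DMSO organoids on the left and PG_KO against ctr gut on the right, with filled points for an edgeR adjusted p under 0.05 and a line at each group's median. On the left every kinetochore, kinesin, cytokinesis and condensin gene lies right of 0, while the G1 cyclins and kinases lie left of it and Cdkn2a stands alone at the far left. On the right no point is filled, and the axis covers a smaller range.

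Code, Cre transgene and agent change together between these groups, so their parts in the change of the members cannot be told apart. Markers moved as well. In Tamoxifen organoids 4 of 5 stem cell and 6 of 6 enterocyte markers rose. So did 4 of 4 tested colonocyte and 5 of 5 goblet cell markers, where 33.9% of all genes rose. The stem cell marker Lgr5 was not called and stood lower, by 0.60 (SE 0.25, edgeR adjusted p = 0.0523), while Smoc2 rose by 11.3 (SE 0.38). Stem cell markers summed to 268 to 292 CPM in Tamoxifen, 112 to 168 CPM in DMSO and 103 to 135 CPM in nativ organoids. The part of these marker shifts in the result was not tested. In bulk RNA, fewer dividing cells and less RNA of a gene per dividing cell cannot be told apart.

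Against nativ organoids, which share the code T75 with DMSO organoids, 38 of 42 members rose in Tamoxifen organoids and 0 fell, where 33.5% of all genes tested rose. This comparison uses the same 3 Tamoxifen libraries as the first, so the 2 are not independent. The 38 were 17 of 19 replication and 21 of 23 mitotic members, with median log2 changes of 0.92 and 1.09, beside 0.01 for all genes. For all 42 members the Tamoxifen libraries lay above the nativ libraries, as they did for 43% of all genes.

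Replication members against nativ kept a wide range. Pclaf rose by 2.84 (SE 0.23, edgeR adjusted p = 1.35e-06), Mcm5 by 1.72 (SE 0.15, adjusted p = 2.39e-06) and Cdc6 by 1.62 (SE 0.13, adjusted p = 1.52e-06). Rrm1 rose by 1.06 (SE 0.09, edgeR adjusted p = 1.51e-06), Mcm3 by 1.05 (SE 0.10, adjusted p = 3.36e-06) and Mcm7 by 0.87 (SE 0.08, adjusted p = 3.91e-06). Pcna rose by 0.92 (SE 0.12, edgeR adjusted p = 4.19e-05), Mcm2 by 0.88 (SE 0.11, adjusted p = 4.23e-05) and Ccne1 by 1.59 (SE 0.18, adjusted p = 2.05e-05). E2f1, at 14.6, 15.7 and 17.7 CPM in nativ libraries, rose by 0.40 (SE 0.13, edgeR adjusted p = 0.0217). The 2 replication members that were not called were the loading factor Cdt1, with a log2 difference of 0.19 (SE 0.09, adjusted p = 0.0961), and Gins2, with 0.34 (SE 0.23, adjusted p = 0.204). For Gins2 nativ replicate 2 stood at 14.6 CPM, just under the lowest Tamoxifen library at 14.8 CPM, while the other 2 nativ libraries stood at 8.19 and 9.74 CPM.

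Mitotic members rose against nativ by up to 1.71, reached by Ccna2 (SE 0.24, edgeR adjusted p = 1.07e-04). Aurkb rose by 1.50 (SE 0.20, edgeR adjusted p = 6.23e-05), Plk1 by 1.54 (SE 0.21, adjusted p = 7.77e-05), Bub1 by 1.46 (SE 0.20, adjusted p = 9.28e-05) and Bub1b by 1.06 (SE 0.15, adjusted p = 9.06e-05). The landmark genes followed, with Top2a at 1.29 (SE 0.17, edgeR adjusted p = 7.35e-05), Mki67 at 1.37 (SE 0.25, adjusted p = 6.48e-04) and Ccnb1 at 1.43 (SE 0.21, adjusted p = 1.35e-04), and Ttk at 1.13 (SE 0.16, adjusted p = 1.26e-04). Cenpa and Ndc80 were not called, with log2 changes of 0.56 (SE 0.24, adjusted p = 0.0621) and 0.57 (SE 0.34, adjusted p = 0.163), and in both nativ replicate 2 was the highest nativ library. Of the 91 other pathway genes 60 rose and 9 fell. The genes of smallest p in their groups were Orc1, Mcm10, Pola2, Fen1, Uhrf1, Rb1, Lin54, Smc2, Nuf2, Ect2, Kif20b and Fzr1, which rose by 0.39 to 2.20, and Ccnd1 and Cdkn2a, which fell by 1.54 and 6.16. Besides Ccnd1 and Cdk6, Cdk4 and Ccnd3 also fell, by 0.35 and 0.26, so 4 of the 5 D-type cyclin and kinase genes were lower than in nativ organoids.

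DMSO organoids were compared with nativ organoids of the same code and title, which differ in the treatment label. Of the 42 members 0 were called with edgeR, as were 0% of all 16449 genes tested, and DESeq2 called 5 members, all lower, among 157 genes. At an unadjusted p under 0.05, 21 members stood lower in DMSO organoids and 0 higher, where 7.31% of all genes stood lower. The log2 change was below 0 for 40 of 42 members, all but Ccne1 and E2f1, where it was below 0 for 51.6% of all genes. Its median was -0.25 for replication and -0.50 for mitotic members, beside -0.01 for all genes. The 3 DMSO libraries lay below the 3 nativ libraries for 15 members, as they did for 7% of all genes.

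The 5 members that DESeq2 called were Pclaf, Ska1, Birc5, Bub1 and Ccna2. Ska1, whose product holds the kinetochore on microtubules, stood at 0.710, 1.03 and 1.28 CPM in DMSO libraries and 2.33, 3.50 and 2.40 CPM in nativ libraries, a log2 difference of -1.51 (SE 0.28, edgeR adjusted p = 0.291). Pclaf, with the library values given above, differed by -1.24 (SE 0.23, edgeR adjusted p = 0.291). Birc5 differed by -1.01 (SE 0.26, edgeR adjusted p = 0.291), Ccna2 by -0.91 (SE 0.24, adjusted p = 0.291) and Bub1 by -0.81 (SE 0.21, adjusted p = 0.291). For all 5, picked by a test on these same libraries, every DMSO library lay below every nativ library. Cdc45 stood at 4.30, 2.26 and 4.52 CPM in DMSO libraries and 5.18, 7.52 and 5.88 CPM in nativ libraries, a log2 difference of -0.81 (SE 0.25, edgeR adjusted p = 0.291). Foxm1 differed by -0.62 (SE 0.17), Ttk by -0.54 (SE 0.17), Mcm5 by -0.51 (SE 0.15), Gins2 by -0.74 (SE 0.24), Mcm6 by -0.25 (SE 0.08) and Mcm7 by -0.24 (SE 0.08). The landmark genes overlapped between the groups, with log2 changes of -0.50 (SE 0.25) for Mki67, -0.42 (SE 0.21) for Ccnb1, -0.28 (SE 0.12) for Pcna, -0.26 (SE 0.17) for Top2a, -0.06 (SE 0.11) for Mcm2 and 0.25 (SE 0.18) for Ccne1. Of the 91 other pathway genes 0 were called with edgeR and 2 with DESeq2, and 27 had an unadjusted p under 0.05, all lower. Those of smallest p in their groups (Orc6, Mcm10, Prim1, Lig1, Uhrf1, Cdk4, Cdkn1b, E2f8, Mybl2, Ncapg, Nuf2, Racgap1, Kif15 and Ube2c) had log2 changes from -0.82 to -0.28.

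In DMSO replicates 1 and 3 and nativ replicate 2, picked after their values were seen, the replication and the mitotic members did not move as one. DMSO replicate 3 lay above the mean of the other 2 DMSO libraries for 23 of 23 mitotic members, by a median of 0.68 on the log2 scale, and for 12 of 19 replication members, by a median of 0.12. Of the 15721 genes compared in this way 56.4% lay above that mean, with a median difference of 0.04. Among members the difference was largest for Cenpf, a protein of the outer kinetochore. Cenpf stood at 20.0 CPM in DMSO replicate 3 and at 7.17 and 9.69 CPM in the other 2 DMSO libraries. DMSO replicate 1 lay below the mean of its other 2 libraries for 23 of 23 mitotic members and for 9 of 19 replication members. Of all genes compared, 54.6% lay above the mean in DMSO replicate 1. In DMSO replicate 2 both sets moved alike, with 20 of 23 mitotic and 15 of 19 replication members below the mean. Their medians were -0.18 and -0.20, and 31.0% of all genes compared lay above the mean. Each library was set against the other 2 of its group, so these differences are not independent. The mean log2(CPM + 0.5) over mitotic members minus that over replication members was -0.33, 0.03 and 0.41 in the DMSO libraries and 0.19, 0.39 and 0.15 in the nativ libraries, so the nativ values fell inside the range of the DMSO values. Nativ replicate 2 stood lower than the mean of the other 2 nativ libraries for Mcm2, Mcm3 and Mcm4, by 0.56, 0.45 and 0.47 on the log2 scale, and higher for Birc5, Ndc80, Ccnb2, Gins2 and Tyms, by 0.84, 0.74, 0.70, 0.68 and 0.67. Of all genes compared, only 31.2% lay higher in nativ replicate 2, and their median difference over all genes was -0.17. In DMSO against nativ, leaving out DMSO replicate 3 moved the mitotic median to -0.74. Leaving out DMSO replicate 1 or nativ replicate 2 moved it to -0.30 or -0.31. Without DMSO replicate 3 and nativ replicate 2 together, an alternative chosen after the libraries were seen, 1 member was called with edgeR, Pclaf, lower by 1.21, among 6 of 16717 genes (0.0359% of those tested).

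**Figure D4:**
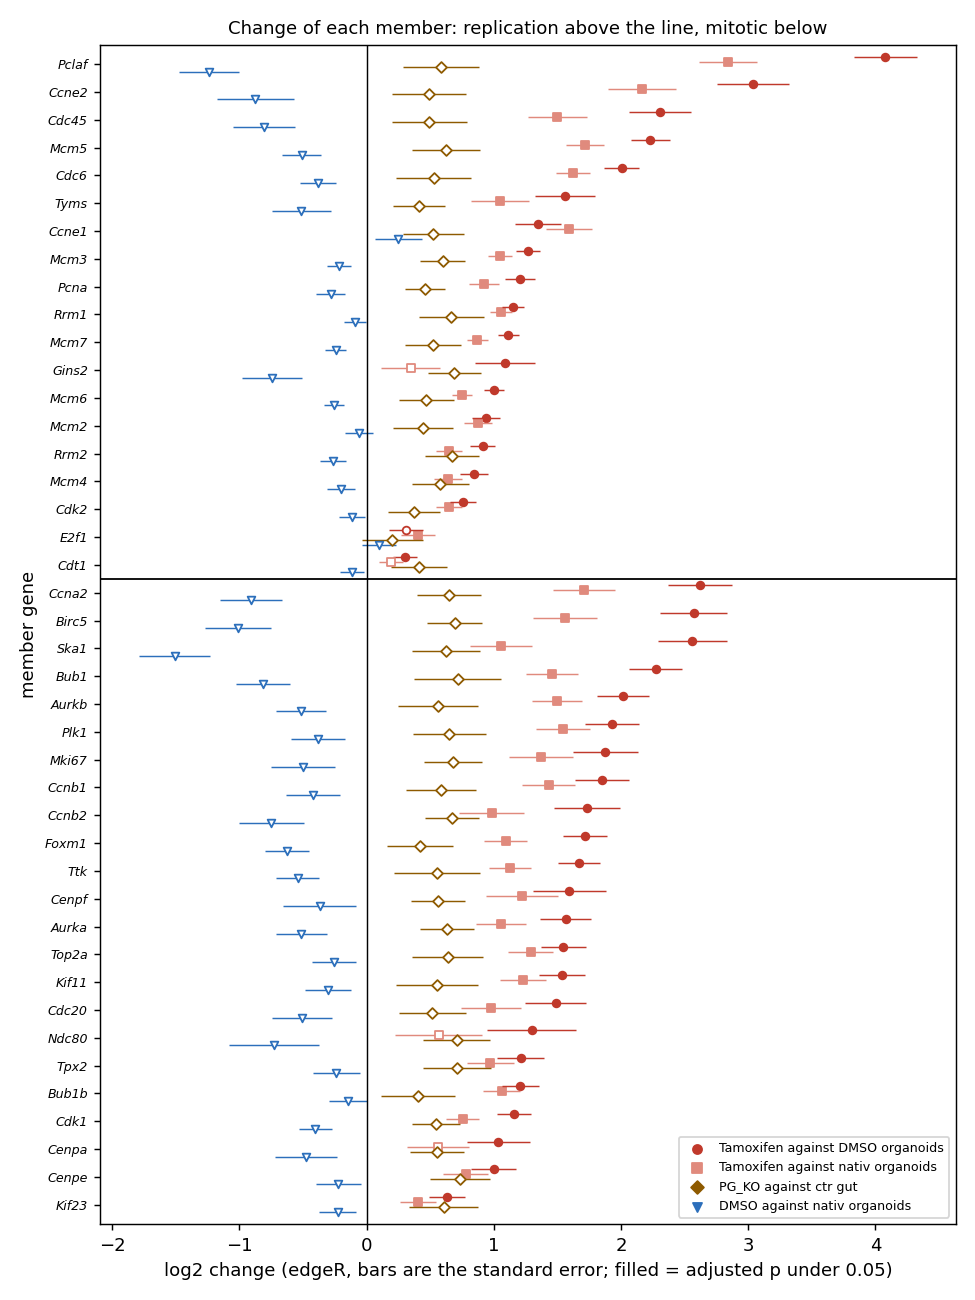
Log2 change of every member (rows, replication above the line and mitotic below) in 4 comparisons, with bars for the standard error and filled symbols for an edgeR adjusted p under 0.05. Changes of Tamoxifen against DMSO run from 0.30 to 4.08 and are mostly the largest in a row, those of PG_KO against ctr gut lie in a narrow band from 0.20 to 0.73, and those of DMSO against nativ lie left of 0 for all but 2 genes. The Tamoxifen against DMSO, Tamoxifen against nativ and DMSO against nativ values share libraries.

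In gut tissue, PG_KO libraries were compared with ctr libraries. Of the 42 members 0 were called, with edgeR and with DESeq2 alike, where edgeR called 0% of the 18043 genes tested and DESeq2 called 458 genes. All 42 members had a log2 change above 0, which 47.4% of all genes had. The changes lay between 0.20 and 0.73, with medians of 0.52 for replication and 0.63 for mitotic members, beside -0.03 for all genes. At an unadjusted edgeR p under 0.05, 18 members stood higher in PG_KO gut and 0 lower, where 5.27% of all genes stood higher. The 3 PG_KO libraries lay above the 3 ctr libraries for 11 members, as they did for 9.97% of all genes.

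The replication genes of smallest p were Mcm3, Gins2, Rrm2, Pcna, Mcm4 and Rrm1. Mcm3 stood at 116, 144 and 131 CPM in PG_KO libraries and 73.3, 82.8 and 102 CPM in ctr libraries, a log2 difference of 0.60 (SE 0.18, edgeR adjusted p = 0.330). Gins2 stood at 20.4, 31.5 and 27.4 CPM in PG_KO libraries and 15.4, 14.6 and 19.2 CPM in ctr libraries, a log2 difference of 0.69 (SE 0.21, edgeR adjusted p = 0.330). Rrm2 stood at 155, 221 and 148 CPM in PG_KO libraries and 104, 95.5 and 131 CPM in ctr libraries, with a log2 difference of 0.67 (SE 0.21). For these 3 genes, picked by p in these same libraries, the groups did not overlap, and ctr replicate 3 was the highest ctr library. Pcna stood at 148, 193 and 176 CPM in PG_KO libraries and 119, 116 and 142 CPM in ctr libraries, a log2 difference of 0.46 (SE 0.16, edgeR adjusted p = 0.330). Mcm4 and Rrm1 differed by 0.58 (SE 0.22) and 0.67 (SE 0.26). Mcm2 stood at 85.7, 125 and 109 CPM in PG_KO libraries and 62.4, 70.4 and 102 CPM in ctr libraries, so the groups overlapped, with a log2 difference of 0.44 (SE 0.24, edgeR adjusted p = 0.376). Ccne1 differed by 0.52 (SE 0.24) and E2f1, the smallest difference of a member in gut, by 0.20 (SE 0.24).

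The mitotic genes of smallest p were Birc5, Ccnb2, Cenpe, Mki67, Aurka and Cdk1. Birc5 stood at 127, 136 and 171 CPM in PG_KO libraries and 70.2, 91.3 and 107 CPM in ctr libraries, a log2 difference of 0.69 (SE 0.22, edgeR adjusted p = 0.330). Mki67 stood at 264, 286 and 389.7 CPM in PG_KO libraries and 180.2, 167 and 242 CPM in ctr libraries, a log2 difference of 0.68 (SE 0.23, edgeR adjusted p = 0.330). Cenpe, a motor that moves chromosomes to the spindle equator, differed most of all members, by 0.73, with 45.6, 41.7 and 69.2 CPM in PG_KO libraries and 31.4, 26.8 and 36.5 CPM in ctr libraries. The 6 genes, picked by p in these same libraries, did not overlap between the groups. Ccnb2, Aurka and Cdk1 differed by 0.67 (SE 0.21), 0.63 (SE 0.22) and 0.54 (SE 0.19). Top2a stood at 329.9, 416 and 357 CPM in PG_KO libraries and 180.1, 195 and 334 CPM in ctr libraries, so ctr replicate 3 lay above PG_KO replicate 1, with a log2 difference of 0.64 (SE 0.28, edgeR adjusted p = 0.337). Ccnb1 overlapped likewise and differed by 0.59 (SE 0.27). Pclaf, which led the change in organoids, stood at 70.9, 115 and 114 CPM in PG_KO libraries and 49.9, 56.6 and 92.4 CPM in ctr libraries, a log2 difference of 0.58 (SE 0.30, edgeR adjusted p = 0.366).

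Of the 91 other pathway genes 90 were tested in gut, 0 were called with edgeR or DESeq2, and 20 had an unadjusted p under 0.05, all higher. Those of smallest p in their groups were Orc6, Gins1, Pola2, Rfc5, Asf1b, E2f6, Mybl2, Smc2, Mad2l1, Cdca8, Kif15 and Ube2s, with log2 changes from 0.40 to 0.80, and Ccnd2 and Cdkn1c at -0.50 (SE 0.27) and -0.84 (SE 0.40). The CDK inhibitors had a median of -0.11, and the other 13 groups had medians above 0.

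The gut result turned on 1 library. Without ctr replicate 3 edgeR called 20 members higher in PG_KO gut, 6 of replication and 14 of mitosis, among 1478 of 18679 genes (7.91% of those tested), and the medians were 0.79 and 0.92. In the library left out, 42 of 42 members lay above the mean of the other 2 ctr libraries, by a median of 0.53 on the log2 scale for replication and 0.61 for mitotic members, while 46.7% of all genes did. The same library had the most epithelial and the least stromal marker RNA of its group. Epithelial markers summed to 14156, 11248 and 13217 CPM in PG_KO libraries and to 7069, 8090 and 11430 CPM in ctr libraries, and 0 of 6 were called. Smooth muscle markers summed to 598, 879 and 1151 CPM in PG_KO libraries and to 4263, 3385 and 657 CPM in ctr libraries, and fibroblast markers to 1270, 1367 and 629 CPM in PG_KO libraries and to 3627, 2161 and 919 CPM in ctr libraries. Lymphocyte markers did not overlap between the groups, with T and NK cell markers at 5.32 to 8.91 CPM in PG_KO and 11.6 to 28.3 CPM in ctr libraries, and B and plasma cell markers at 75.8 to 142 CPM in PG_KO and 182 to 504 CPM in ctr libraries. Endothelial markers spanned 27.6 to 81.3 CPM in PG_KO and 42.7 to 200.1 CPM in ctr libraries, myeloid markers 99.7 to 533 CPM in PG_KO and 248 to 1315 CPM in ctr libraries, and markers of nerve and glia 27.3 to 38.1 CPM in PG_KO and 21.0 to 123 CPM in ctr libraries.

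Set against the summed epithelial markers, the gut groups lay closer together. These markers did not move evenly. In PG_KO against ctr gut the keratins Krt18, Krt19 and Krt8 had log2 changes of 0.95, 0.74 and 0.66. Epcam, Cdh1 and Vil1 had changes of 0.19, 0.16 and 0.16, so the sum rose mainly with keratin RNA. The summed CPM of the 42 members divided by that of the 6 epithelial markers was 0.246, 0.423 and 0.332 in PG_KO libraries and 0.328, 0.303 and 0.317 in ctr libraries. The PG_KO values lay on both sides of the ctr values, which is a description of 2 sums and not a test of a change within the epithelium. With the log2 sum of epithelial markers as a covariate, chosen after the values were seen, the medians were 0.23 for replication and 0.22 for mitotic members, and 0 members were called. The sum spanned 11248 to 14156 CPM in PG_KO and 7069 to 11430 CPM in ctr libraries. Covariate and group thus nearly coincided, and their parts in the members' change cannot be told apart. In organoids the same ratio was 0.294, 0.283 and 0.283 in Tamoxifen libraries, 0.143, 0.119 and 0.157 in DMSO libraries and 0.149, 0.157 and 0.150 in nativ libraries, so there the Tamoxifen libraries stayed clear of the others. Goblet cell markers summed to 478 to 1141 CPM in PG_KO and 3290 to 6543 CPM in ctr libraries, and colonocyte markers to 541 to 995 CPM in PG_KO and 1778 to 3406 CPM in ctr libraries, and the part of these shifts in the members' levels was not tested.

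**Figure D5:**
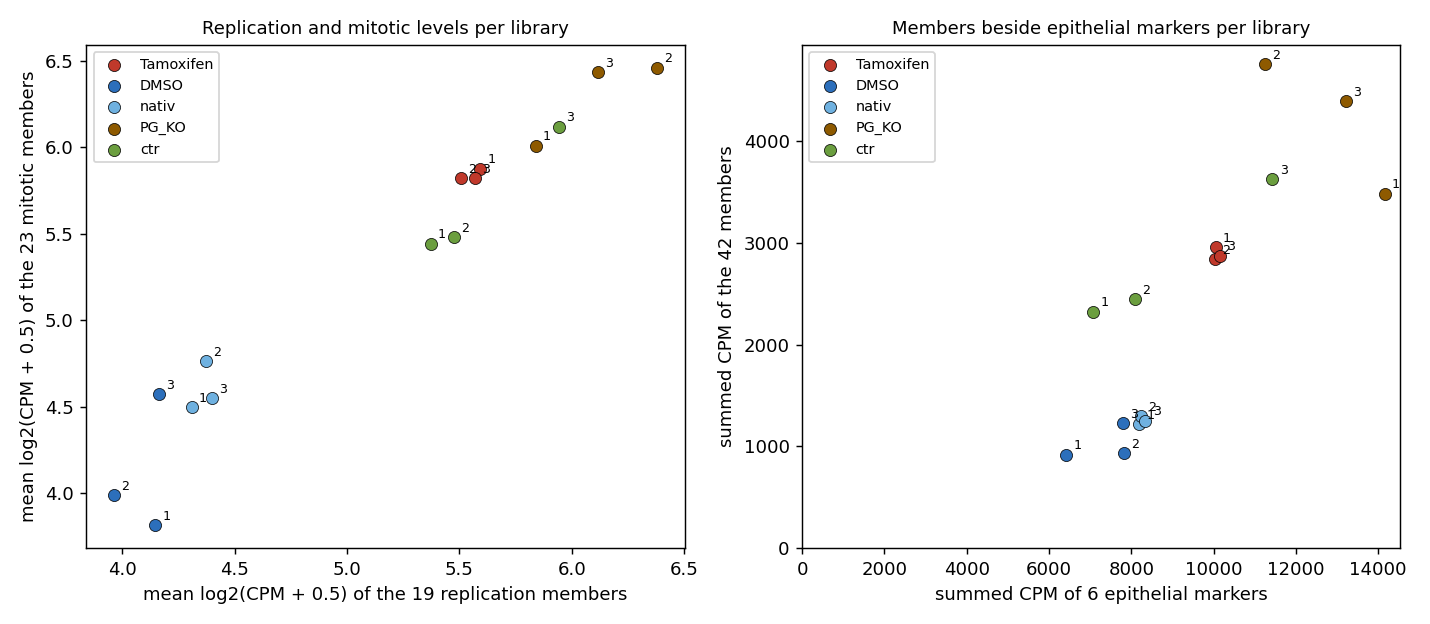
Left, mean log2(CPM + 0.5) of the 23 mitotic members against that of the 19 replication members, 1 point for each of 15 libraries, numbered by replicate. Right, summed CPM of the 42 members against summed CPM of 6 epithelial markers. The Tamoxifen libraries form a tight cluster away from the DMSO and nativ libraries in both panels, DMSO replicate 3 stands above the other 2 DMSO libraries on the mitotic axis, and ctr replicate 3 lies beside the PG_KO libraries.

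The change in gut was then set against the change in organoids in 1 fit of 12 libraries, which asked of each member whether PG_KO against ctr differed from Tamoxifen against DMSO. The difference was below 0 for 41 of 42 members and for 55.9% of all genes, and it was called for 24, all 24 lower in gut, where 20.7% of the 19141 genes tested were called lower. The 24 were 10 replication and 14 mitotic members, and the medians of the difference were -0.64 and -1.08, beside -0.14 for all genes. Pclaf differed most, at -3.54 (SE 0.37, edgeR adjusted p = 3.94e-05), beside changes of 0.58 in gut and 4.08 in organoids. Ccne2 differed by -2.58 (SE 0.37, adjusted p = 3.26e-04), Ccna2 by -2.02 (SE 0.33, adjusted p = 8.26e-04), Ska1 by -1.98 (SE 0.35, adjusted p = 0.00120) and Birc5 by -1.93 (SE 0.22, adjusted p = 8.07e-05). Mcm5 and Tyms differed by -1.65 (SE 0.30, adjusted p = 0.00169) and -1.20 (SE 0.24, adjusted p = 0.00247), and Pcna by -0.80 (SE 0.16, adjusted p = 0.00251). At the other end stood Kif23, at -0.07 (SE 0.33), and Cdt1, at 0.06 (SE 0.23), where the difference was smaller than its SE. Top2a and Ccne1 just missed the threshold (adjusted p = 0.0533 and 0.0543), and Mcm2 had an adjusted p of 0.0953. With all 12 libraries 36.4% of all genes were called in either direction. Leaving out ctr replicate 3 brought the number of members called to 15, while 39.6% of all genes were called. Leaving out PG_KO replicate 3 also brought it to 15, with 33.5% of all genes called, and leaving out any 1 Tamoxifen library brought it to 12 to 14, with 28.0% to 28.8% of all genes called. The fit gave each gene a common spread for both materials, although gut libraries of a group differed far more than Tamoxifen libraries. For Pcna the SE of the difference, 0.157, was below the SE of its gut change alone, 0.160. The adjusted p-values of the difference can therefore be too small. Tissue with its stroma stands here beside epithelium alone. The organoid groups also differ in code, Cre transgene and agent, and the titles of the PG_KO libraries name DSS colitis. The parts of these differences in the result cannot be told apart and were not tested.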

How the data were processed

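Poly(A) RNA was sequenced from 9 organoid and 6 gut libraries. The authors deposited 2 tables of expected counts, 1 for organoids and 1 for gut, of which 10.4% to 13.7% of values per library were not whole, among them values of 23 of the 42 members in at least 1 library. Per the submitters' processing notes, the tools were featureCounts 1.6.4 of Subread, STAR 2.7.2b, DESeq2, cutadapt 2.5 and bcl2fastq 2.20.0.422, and the genome was GRCm38.p6. Whether counting used strand was not given in the sources used here, so reads of a member and of an overlapping antisense gene cannot be told apart. The counts were rounded to whole numbers here. Groups were taken from the sample descriptions, and all 15 columns were matched to samples by name, 1 gut column with a letter that differs from the label.

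Genes with enough reads by edgeR's filterByExpr were fitted with TMM scaling and edgeR 4.0.16 quasi-likelihood tests (R 4.3.3, limma 3.58.1), in 3 fits of 9 organoid, 6 gut and 12 libraries, and p-values were adjusted over all genes tested by Benjamini-Hochberg, with a threshold of 0.05. DESeq2 1.42.0 was an alternative, with other scaling, no filter, a replicate block and each replicate left out. CPM used library totals, with 0.5 added before logs. Python 3.11.15, numpy 2.4.6, pandas 2.3.3 and matplotlib 3.10.9 were used for the rest. Reads carry no molecular identifiers, so the level of 3 reads covers counting error only.

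The members and lists were chosen with earlier results of these data known. Named in each comparison were 6 landmark genes, the 6 replication and 6 mitotic members of smallest p and 1 gene of smallest p from each of 14 groups of pathway genes. Other members were added to account for all 42, and so were pathway genes that fell, E2f2 and the CDK inhibitors that rose, chosen after their values were seen. Tested on simulated data with 100 genes changed by 1 on the log2 scale, edgeR recovered 69% for Tamoxifen against DMSO, 70% for Tamoxifen against nativ, 68% for DMSO against nativ, 6% for gut and 16% for the difference of the changes. With changes of 2 it recovered 91%, 93%, 89%, 54% and 49% in that order. The changed genes were drawn at random from all genes tested, at any level, and all others were left unchanged. In Tamoxifen against DMSO organoids 66.3% of all genes tested were called, so the simulated setting was unlike these data. The shares recovered do not give the recovery of the members.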

Additional observations from a re-analysis of the deposited data

Results flagged for a closer look

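For 24 members the change of PG_KO against ctr gut differed from that of Tamoxifen against DMSO organoids, by the test of the difference in 1 fit of 12 libraries (edgeR, adjusted p under 0.05), and each difference was below 0. The differences are gut change minus organoid change on the log2 scale. Among replication members they were -3.54 for Pclaf, -2.58 for Ccne2, -1.86 for Cdc45, -1.65 for Mcm5, -1.52 for Cdc6, -1.20 for Tyms, -0.80 for Pcna, -0.72 for Mcm3, -0.64 for Mcm7 and -0.58 for Mcm6. Among cyclins and kinases of mitosis they were -2.02 for Ccna2, -1.31 for Ccnb1, -1.11 for Ccnb2, -0.66 for Cdk1, -1.32 for Plk1, -0.98 for Aurka, -1.50 for Aurkb, -1.60 for Bub1 and -1.16 for Ttk. For the remaining mitotic members they were -1.98 for Ska1, -1.93 for Birc5, -1.35 for Foxm1, -1.25 for Mki67 and -1.01 for Cdc20. All 24 genes had a change above 0 in both materials, as had all 42 members. The gut change was called for 0 of them, as for 0% of all genes tested in gut. Of the 19141 genes tested for the difference, 20.7% were called lower. The fit used a common spread for gut and organoids, so the adjusted p-values can be too small. With 1 library left out at a time, 12 to 26 members were called, while 28.0% to 39.6% of all genes were called in either direction.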

How the results depend on the processing

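Each group had 3 libraries, and depth was not varied, so what depth limits was not tested. With each library left out in turn, members called ranged from 40 to 42 for Tamoxifen against DMSO, 36 to 41 for Tamoxifen against nativ, 0 to 0 for DMSO against nativ, 0 to 20 for gut and 12 to 26 for the difference of the changes. The medians of replication and mitotic members ranged from 1.12 to 1.16 and 1.40 to 1.82 for Tamoxifen against DMSO, from 0.84 to 0.95 and 1.00 to 1.25 for Tamoxifen against nativ, from -0.27 to -0.22 and -0.74 to -0.30 for DMSO against nativ, from 0.39 to 0.79 and 0.46 to 0.92 for gut, and from -0.72 to -0.28 and -1.29 to -0.65 for the difference. In DMSO against nativ, where edgeR called 0 members with all libraries, DESeq2 called 5, and edgeR without DMSO replicate 3 and nativ replicate 2 called 1. With epithelial markers as a covariate the gut medians were 0.23 and 0.22. The log2 change of Mcm2 in DMSO against nativ was -0.06 with all libraries and ranged from -0.17 without nativ replicate 2 to 0.005 without nativ replicate 1, a change of direction. The cause of these moves was not tested. With the replicate block 41, 39, 0 and 0 members were called in Tamoxifen against DMSO, Tamoxifen against nativ, DMSO against nativ and gut. Same-numbered libraries correlated at -0.22 to 0.32, not over 0.1 in every pair of any comparison, so the numbers were not taken as pairs.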
